A study of Sus scrofa with 6 samples.

Results

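Germ cell RNA-binding proteins and their partners in translation were examined as a group of 10 genes in 8-cell embryos of the pig, Sus scrofa: DAZL, DDX4, CPEB1, YBX2, PATL2, PABPC1, PABPC1L, PABPN1L, ZAR1L and PAIP2. The members were picked by name for their roles, and 9 of the 10 had rows in the deposited transcript table, out of 29874 genes in all. No row carried the name PATL2, a repressor of translation in oocytes, and it was not analysed here. The 9 genes had 22 transcript rows, of which 14 were above 0 in at least 1 library. The embryos fell into 3 libraries from embryos injected in the cytoplasm with siRNA against a long non-coding RNA that the labels call LncT (LncT KD), and 3 libraries labelled control. The labels name no strain, age or embryo number and do not say what control embryos received or whether libraries came from separate collections, so the p-values below speak of the spread among these libraries alone, and that spread may be technical. The table's columns for the knockdown begin with SL, matched to titles that begin with siL, and nothing in the table says which row is LncT, so its level could not serve as a check of the knockdown.

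A growing oocyte transcribes and stores mRNAs that it does not use at once, and RNA-binding proteins keep these messages silent and stable until meiosis or fertilisation. Release from storage works largely through the poly(A) tail: CPEB1 recruits the enzymes that lengthen it, poly(A)-binding proteins coat it and recruit initiation factors, and PAIP2 pulls those proteins off again. Around genome activation the embryo clears much of this store and the oocyte's own poly(A)-binding protein gives way to the somatic form, as described in frogs and mice.

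Levels are given as FPKM, fragment counts that the authors scaled for transcript length and library size, summed over the transcript rows of a gene. Relative depth, taken as coverage per FPKM, ranged from 6.29 to 9.41 in LncT KD libraries and from 6.45 to 7.03 in control libraries. Control 3 stood apart from the other controls. Across the 10417 tested genes its Spearman correlation was 0.900 to 0.941 with the LncT KD libraries, against 0.611 and 0.655 with controls 1 and 2, a description across genes, which are not replicates. Controls 1 and 2 correlated at 0.922 with each other and at 0.69 to 0.78 with the LncT KD libraries. The LncT KD libraries correlated at 0.923 to 0.943 among themselves. Which controls deviate cannot be told from these values. Mitochondrial transcripts made up 27.5% to 44.0% of TPM in LncT KD libraries and 21.7% to 40.8% in controls, with the highest control value in control 3. All 12 listed genes of the oocyte store, such as GDF9 and BMP15, reached 1 FPKM in at least 1 library. Their sum was 1100, 1547 and 1692 FPKM in LncT KD libraries, against 2597, 2560 and 860 FPKM in controls 1, 2 and 3. KPNA7, a large part of it, was at 217 to 414 FPKM in LncT KD libraries and at 989, 893 and 185 FPKM in controls. Not every gene followed the sum. ZP4 was at 150 to 255 FPKM in LncT KD libraries and at 195, 172 and 116 FPKM in controls. ZP2 was at 12.2 to 17.4 FPKM in LncT KD libraries and at 18.1, 14.4 and 12.3 FPKM in controls. Of 10 genome activation genes, 9 were in the table, and their sum was 908, 778 and 683 FPKM in LncT KD libraries, against 286, 447 and 663 FPKM in controls 1, 2 and 3. DUXA alone was at 267 to 358 FPKM in LncT KD libraries and at 252, 303 and 287 FPKM in controls. DPRX, ARGFX, KLF17 and UBTFL1 were listed at 0 in control 1 and were at 0.623, 0.0858, 17.7 and 3.64 FPKM in control 2. In the other libraries these genes ranged from 16.2 to 115 FPKM. Other genes of the list were not near 0 in both controls 1 and 2. LEUTX was at 111 to 248 FPKM in LncT KD libraries and at 1.23, 87.3 and 78.8 FPKM in controls 1, 2 and 3. NFYB was at 40.6 to 48.0 FPKM in LncT KD libraries and at 23.2, 20.3 and 29.9 FPKM in controls. EIF1AX was at 52.0 to 122 FPKM in LncT KD libraries and at 9.98, 15.1 and 54.8 FPKM in controls. ZSCAN4 was listed at 0 in every library. The sperm markers PRM1, PRM2, TNP1, ODF1 and SMCP and the granulosa cell markers INHA and FOXL2 were listed at 0 in every library. Summed FPKM was 0.393 to 0.887 in LncT KD libraries and 0 to 0.807 in controls for the 8 sperm genes. For the 12 cumulus and granulosa genes in the table it was 9.11 to 14.7 in LncT KD libraries and 9.43 to 11.9 in controls, and INHBA and VCAN made up most of it. Of these genes 4 reached 1 FPKM in at least 1 library: INHBA, VCAN, TNFAIP6 and GREM1. TNFAIP6 was at 1.46 to 1.74 FPKM in LncT KD libraries and 0.0864 to 0.537 FPKM in controls. GREM1 was at 0.526 to 1.02 FPKM in LncT KD libraries and 0.651 to 2.33 FPKM in controls. The 5 leukocyte genes summed to 0.787 to 1.39 FPKM in LncT KD libraries and 0.0564 to 1.32 FPKM in controls, and the 6 fibroblast genes to 2.03 to 2.44 FPKM in LncT KD libraries and 1.66 to 2.44 FPKM in controls. The part that the state of any control, the oocyte store or genome activation played in the results below was not tested.

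No member passed the adjusted threshold of 0.05 when LncT KD was compared with control over all 6 libraries. The test was limma on log2(FPKM + 1) across the 10417 genes that averaged 1 FPKM or more, which took in all 9 members with rows. It called 0 genes in all, or 0% (smallest limma adjusted p = 0.775), and 436 genes, or 4.19%, had an unadjusted p under 0.05, with 0 members among them. Of the 9 members 6 had a log2 change below 0, and 49.6% of all tested genes did so. The median log2 change was -0.16 for the members and 0.0050 for all tested genes. DAZL was the only member whose LncT KD and control values did not overlap, where 7.24% of all tested genes had groups without overlap: 4.38% were higher and 2.86% lower in LncT KD. For 6 of the 9 members the LncT KD values lay between controls 1 and 2 on one side and control 3 on the other, a pattern that was noticed in the values and that 31% of all tested genes shared. Each member is therefore described below by library, with the change over 6 libraries and without control 3. Control 3 was singled out from these same values. The adjusted p-values without it therefore describe how much it matters and are no test of the knockdown.

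**Figure D1:**
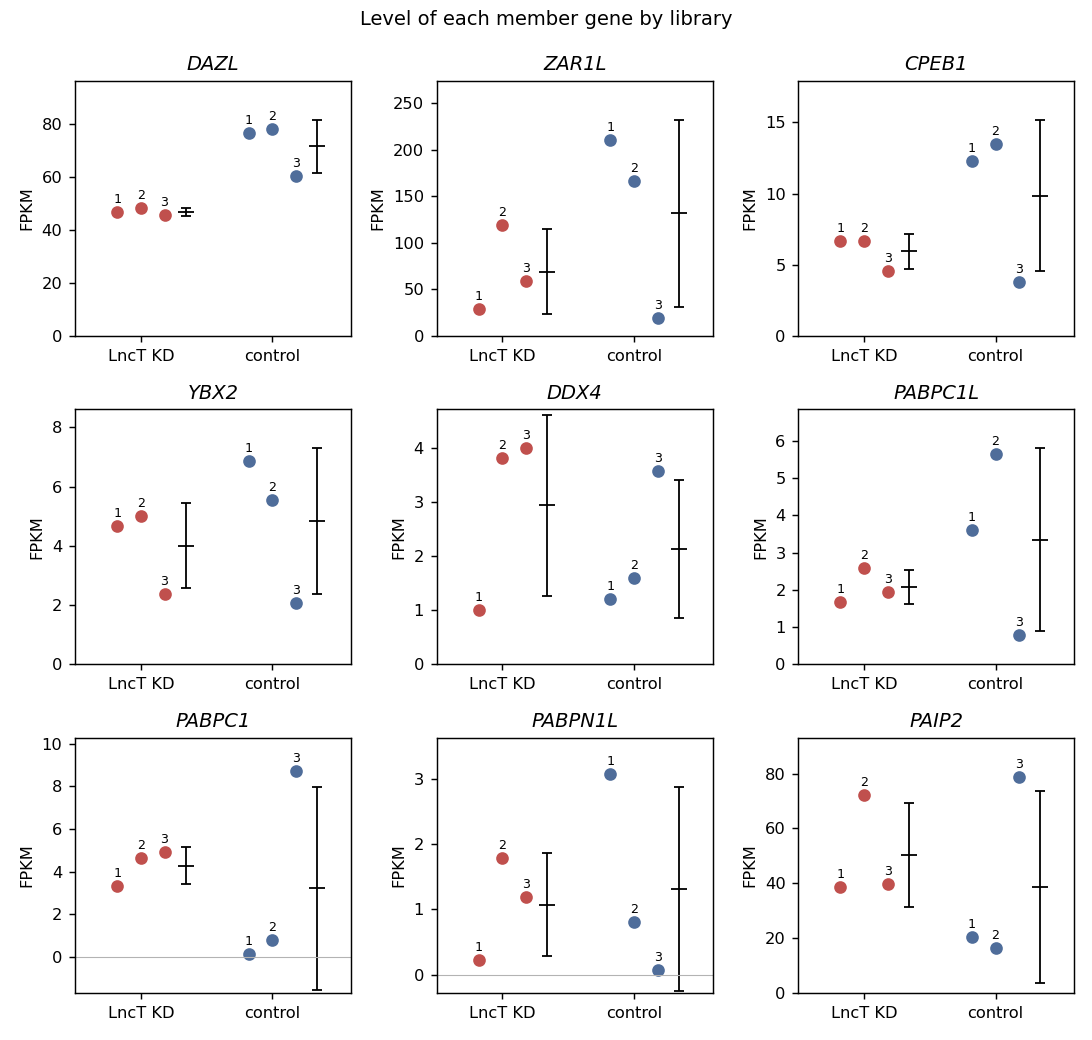
FPKM of the 9 member genes, with LncT KD libraries (red) left of control libraries (blue), the replicate number above each point, and the group mean and SD (n = 3) as a bar. The groups are apart for DAZL alone, and control 3 lies away from the mean of controls 1 and 2 on the side of the LncT KD mean, or past it, for each gene.

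DAZL and ZAR1L were the most abundant of the RNA-binding proteins. DAZL (chromosome 13, 3762896 to 3783848, Sscrofa11.1), a germ cell protein that binds the 3′ ends of mRNAs and promotes their translation, was at 46.6, 48.5 and 45.6 FPKM in LncT KD libraries, against 76.5, 78.2 and 60.2 FPKM in controls 1, 2 and 3. Every LncT KD library lay below every control, and the spread was narrow among the LncT KD libraries. The log2 change was -0.59 ± 0.28 (SE, 95% interval -1.25 to 0.06, limma adjusted p = 0.775). RNA came from whole embryos, so fewer cells of a type and less RNA per cell cannot be told apart. The change stayed between -0.71 and -0.52 with any 1 library left out. DAZL was the least moved by control 3 of all members, with -0.71 when that library was left out (limma adjusted p = 0.0465). In the ranking of the 10417 tested genes by level, DAZL held places 1310, 1433 and 1466 in LncT KD libraries, against 794, 768 and 1173 in controls 1, 2 and 3. The groups did not overlap in that ranking, which comes from the same FPKM values and is no separate result.

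ZAR1L (chromosome 11, 8795478 to 8805876), a zinc finger protein whose mouse counterpart binds stored mRNAs in oocytes, was at 29.3, 119 and 58.8 FPKM in LncT KD libraries, against 210, 166 and 18.9 FPKM in controls 1, 2 and 3. It had the widest interval of the members: its log2 change was -0.56 ± 0.96 (SE, 95% interval -2.83 to 1.70, limma adjusted p = 0.862). Without control 3 the change was -1.64 (limma adjusted p = 0.0525), without control 1 it was 0.059 and without control 2 it was -0.11. Leaving out knockdown 1 gave -0.071 and leaving out knockdown 2 gave -1.06, so that the size rested on single libraries of both groups. LncT KD libraries also differed among themselves, with knockdown 2 the highest and knockdown 1 the lowest. ZAR1, the related gene that gave the family its name, was at 0.293 to 1.54 FPKM in LncT KD libraries and 0.494 to 1.25 FPKM in controls, below the filter for the test. ZAR1 was singled out after its values were seen.

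CPEB1 (chromosome 7, 52329054 to 52382408), which binds the cytoplasmic polyadenylation element of stored mRNAs, was at 6.67, 6.68 and 4.54 FPKM in LncT KD libraries, against 12.3, 13.5 and 3.77 FPKM in controls 1, 2 and 3. Controls 1 and 2 were the highest of the 6 libraries and control 3 the lowest. The log2 change was -0.50 ± 0.49 (SE, 95% interval -1.65 to 0.65, limma adjusted p = 0.789), or -1.01 without control 3 (limma adjusted p = 0.0306). It was -0.27 without control 1 and -0.21 without control 2. The span of CPEB1 overlaps that of LOC110261547. The strand setting is unknown and exons were not compared, so reads from the 2 genes may be mixed. The level of CPEB1 is uncertain to that extent.

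YBX2 (chromosome 12, 52635383 to 52642443), the Y-box protein that coats and stabilises mRNA in germ cells, was at 4.66, 5.02 and 2.36 FPKM in LncT KD libraries, against 6.86, 5.54 and 2.09 FPKM in controls 1, 2 and 3. Its log2 change was -0.16 ± 0.45 (SE, limma adjusted p = 0.919), or -0.56 without control 3 (limma adjusted p = 0.227). It was -0.021 without control 2, -0.27 without knockdown 1 and -0.31 without knockdown 2, and turned to 0.11 without control 1 and to 0.11 without knockdown 3. DDX4 (chromosome 16, 34879701 to 34983701), the VASA helicase of germ granules, was at 1.01, 3.81 and 3.99 FPKM in LncT KD libraries, against 1.21, 1.59 and 3.58 FPKM in controls 1, 2 and 3. Knockdown 1 stood with controls 1 and 2, and the other LncT KD libraries with control 3. The log2 change of DDX4 was 0.29 ± 0.47 (SE, limma adjusted p = 0.856), or 0.60 without control 3 (limma adjusted p = 0.310). It was 0.72 without knockdown 1, 0.091 without knockdown 2, 0.065 without knockdown 3, 0.080 without control 1 and 0.19 without control 2.

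Among the proteins that act on the poly(A) tail, the oocyte form and the somatic form of cytoplasmic poly(A)-binding protein stood in opposite order in different libraries. PABPC1L (chromosome 17, 47321259 to 47351905), the embryonic form of oocytes, was at 1.68, 2.58 and 1.95 FPKM in LncT KD libraries, against 3.61, 5.65 and 0.776 FPKM in controls 1, 2 and 3. PABPC1 (chromosome 4, 36137644 to 36228075), the somatic form, was at 3.31, 4.66 and 4.90 FPKM in LncT KD libraries, against 0.158, 0.809 and 8.71 FPKM in controls 1, 2 and 3. PABPC1 was thus 1.96, 1.80 and 2.51 times PABPC1L in the LncT KD libraries and 11.2 times in control 3, while PABPC1L was 22.8 and 6.98 times PABPC1 in controls 1 and 2. In each control the lower gene was under 1 FPKM, so the size of these control ratios is uncertain. On the log2(FPKM + 1) scale PABPC1L minus PABPC1 was -0.68, -0.66 and -0.999 in LncT KD libraries, against 1.99, 1.88 and -2.45 in controls 1, 2 and 3. All LncT KD libraries lay between the controls, and the groups overlapped. This difference was looked at after the values were seen and has no test.

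**Figure D2:**
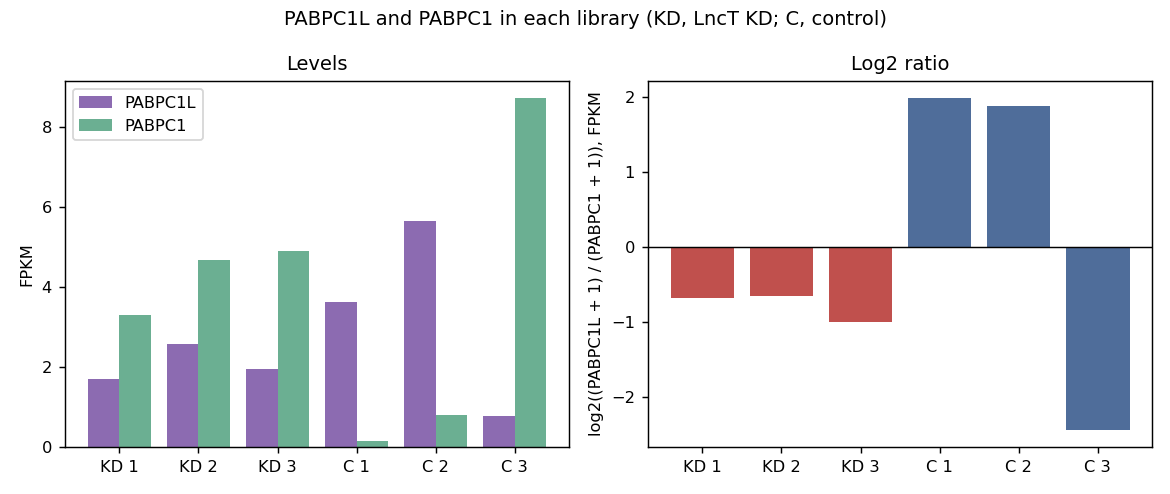
Left, FPKM of PABPC1L (purple) and PABPC1 (green) in each library. Right, the log2 ratio of PABPC1L to PABPC1 after adding 1 FPKM to each, with LncT KD in red and control in blue. PABPC1 is the higher in the 3 LncT KD libraries and in control 3, and PABPC1L in controls 1 and 2.

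The log2 change of PABPC1 was 0.94 ± 0.76 (SE, 95% interval -0.84 to 2.72, limma adjusted p = 0.775), the greatest of the 9 members. That place depended on the value added to FPKM before the log. The change of PABPC1 was 1.77 when 0.1 was added and 0.32 when 5 was added, where that of PAIP2 was 0.57. Without control 3 the change of PABPC1 was 1.86 (limma adjusted p = 0.00484), and it was 0.32 without control 1. PABPC1 has close relatives in its family, and the sources used here do not say how reads with several positions were treated, so its level is uncertain. The change of PABPC1L was -0.31 ± 0.50 (SE, 95% interval -1.50 to 0.88, limma adjusted p = 0.855), or -0.86 without control 3 (limma adjusted p = 0.0621). Without control 2 its sign turned, to 0.093, and without control 1 it was -0.17.

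PABPN1L (chromosome 6, 854605 to 861969), a poly(A)-binding protein of oocytes that in mice helps to target maternal mRNAs for decay, was the weakest member, with a mean of 1.19 FPKM over the 6 libraries. It was at 0.233, 1.79 and 1.19 FPKM in LncT KD libraries, against 3.07, 0.803 and 0.0669 FPKM in controls 1, 2 and 3. The controls covered the whole range of the LncT KD libraries, and the log2 change was -0.02 ± 0.55 (SE, 95% interval -1.31 to 1.28, limma adjusted p = 0.994), or -0.47 without control 3 (limma adjusted p = 0.461). It was 0.50 without control 1 and 0.32 without knockdown 1. PAIP2 (chromosome 2, 141237417 to 141260207), the inhibitor that displaces poly(A)-binding protein from the tail, was at 38.7, 72.2 and 39.8 FPKM in LncT KD libraries, against 20.5, 16.5 and 78.8 FPKM in controls 1, 2 and 3. Control 3 was the highest of the 6 libraries and controls 1 and 2 the lowest. The log2 change was 0.66 ± 0.62 (SE, 95% interval -0.80 to 2.12, limma adjusted p = 0.788), or 1.34 without control 3 (limma adjusted p = 0.0234). It was 0.39 without control 1, 0.25 without control 2 and 0.37 without knockdown 2. PAIP2 overlaps SLC23A1 in the annotation, which leaves its level uncertain in the same way as that of CPEB1.

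With control 3 left out, 6 members were again below 0, beside 51.9% of all tested genes, and 4 members passed the threshold: PABPC1 and PAIP2 were higher in LncT KD, and DAZL and CPEB1 were lower. In that comparison of 3 LncT KD libraries with 2 controls 20.2% of all tested genes were called higher and 7.22% lower, 27.4% in all. Because the library to leave out was chosen from these same values, those calls are a description and not a test of the knockdown. When any other library was left out, 0 members and 0 genes in all passed the limma threshold, or 0%. Array weights let limma count some libraries for less. They were estimated from these same values and gave control 3 a weight of 0.113. With them 5 members passed, where 32.7% of all tested genes were called. Those calls too are a description and not a test of the knockdown. Control 3 was nearer to the mean of the LncT KD libraries than to that of controls 1 and 2 for 9 of the 9 members, and for 84.4% of all tested genes. For DAZL these distances were almost equal, at 0.35 and 0.36 on the log2(FPKM + 1) scale, while for ZAR1L they were 1.59 and 3.24.

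**Figure D3:**
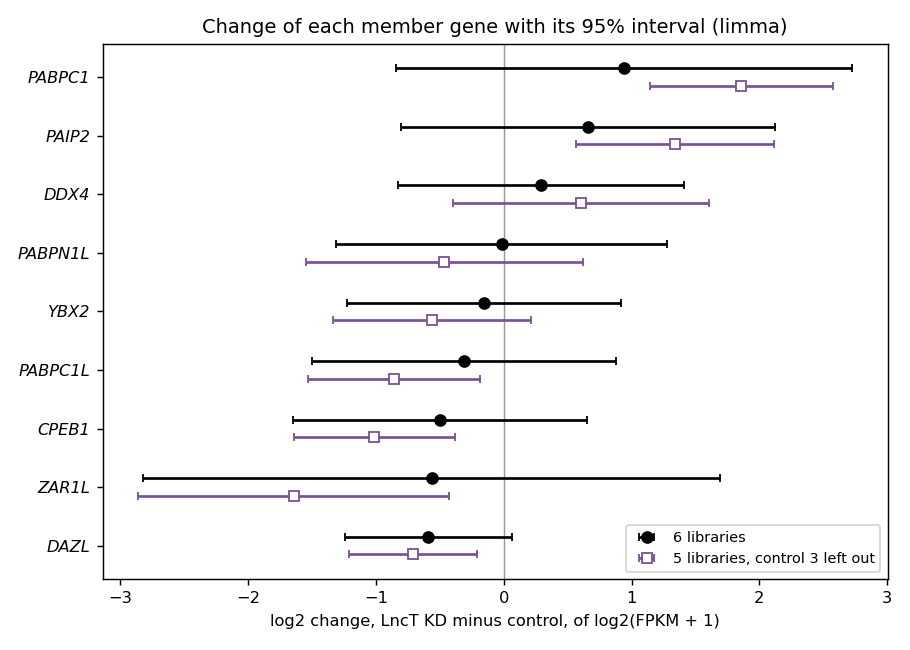
Log2 change of each member, LncT KD minus control on the log2(FPKM + 1) scale, with its 95% interval from limma, for all 6 libraries (black) and without control 3 (purple, open squares). Every interval over 6 libraries includes 0, and without control 3 the changes run from -1.64 for ZAR1L to 1.86 for PABPC1.

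Ordered by their mean over the 6 libraries, levels were 100.3 FPKM for ZAR1L, 59.3 for DAZL, 44.4 for PAIP2, 7.91 for CPEB1, 4.42 for YBX2, 3.76 for PABPC1, 2.71 for PABPC1L, 2.53 for DDX4 and 1.19 for PABPN1L. Only the steps between PAIP2 and CPEB1 and between CPEB1 and YBX2 held in each of the 6 libraries. The order of ZAR1L and DAZL, of DAZL and PAIP2, of YBX2 and PABPC1 and of PABPC1 and PABPC1L held in 4 of 6 libraries, that of PABPC1L and DDX4 in 3 and that of DDX4 and PABPN1L in 5. Neighbours in the order other than those around CPEB1 were therefore not separated beyond their spread between libraries. The sum of the 9 members was 132, 264 and 163 FPKM in LncT KD libraries, against 334, 289 and 177 FPKM in controls 1, 2 and 3, with ZAR1L, DAZL and PAIP2 as its main parts.

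Single transcript rows showed exchanges that the sums per gene hide. YBX2 had a protein-coding row, XM_003131938.4, and a row that RefSeq models as non-coding, XR_002337355.1. The coding row was at 4.65, 1.04 and 0.625 FPKM in LncT KD libraries, against 6.86, 5.54 and 0.388 FPKM in controls 1, 2 and 3. The non-coding row was at 0.0113, 3.98 and 1.74 FPKM in LncT KD libraries, against 1.70 FPKM in control 3, and was listed at 0 in controls 1 and 2. It made up 79.3% and 73.5% of YBX2 in knockdowns 2 and 3 and 81.4% in control 3, against 0.24% in knockdown 1. The coding row had a log2 change of -0.64 (95% interval -2.63 to 1.34, limma adjusted p = 0.822 over 12013 transcript rows).

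DDX4 divided the libraries in the same way. Its row XM_021076581.1 made up 28.1%, 96.9% and 95.7% of the gene in LncT KD libraries 1, 2 and 3, against 32.5%, 0% and 86.6% in controls 1, 2 and 3. The rest came from XM_021076578.1, at 0.725, 0.119 and 0.173 FPKM in LncT KD libraries, against 0.820, 1.59 and 0.478 FPKM in controls 1, 2 and 3, and 4 further DDX4 rows were listed at 0 throughout. For both YBX2 and DDX4, knockdown 1 and controls 1 and 2 shared a leading row, and knockdowns 2 and 3 and control 3 shared another. That division does not follow the groups. It was found in 37 of the 3272 tested genes with at least 2 rows above 0 and a level above 0 in every library, or 1.13%, and was counted after the members' values were seen. How reads were divided between overlapping rows was not tested.

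PAIP2 was led by another row in a single library. XM_003123980.4 held the whole level of PAIP2 in control 1, at 20.5 FPKM, and was listed at 0 in the other 5 libraries, where XM_021084871.1 held all of it. XM_021084871.1 was at 38.7, 72.2 and 39.8 FPKM in LncT KD libraries, against 16.5 and 78.8 FPKM in controls 2 and 3. Its log2 change of 2.14 (95% interval -1.58 to 5.85, limma adjusted p = 0.785) rests on its 0 in control 1, while that of the sum per gene was 0.66. A leading row that set control 1 apart from the other 5 libraries was seen in 147 of the 3272 genes, or 4.49%. ZAR1L kept the same leading row, XM_021065180.1, in every library, at 90.1%, 92.3% and 90.5% of the gene in LncT KD libraries, against 92.6%, 96.0% and 85.0% in controls 1, 2 and 3. Across the table the leading row differed between libraries in 49.2% of the 3272 genes. No member row passed the threshold over 6 libraries, where 14 of 12013 rows, or 0.117%, were called. Without control 3 the single rows of DAZL and PABPC1 passed (limma adjusted p = 0.0420 and 0.0299), DAZL lower and PABPC1 higher in LncT KD. The single row of CPEB1 (limma adjusted p = 0.0668) and the rows of PAIP2 (limma adjusted p = 0.305 and 0.140) did not pass. In that comparison 13.4% of rows were called, 11.3% higher and 2.13% lower.

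**Figure D4:**
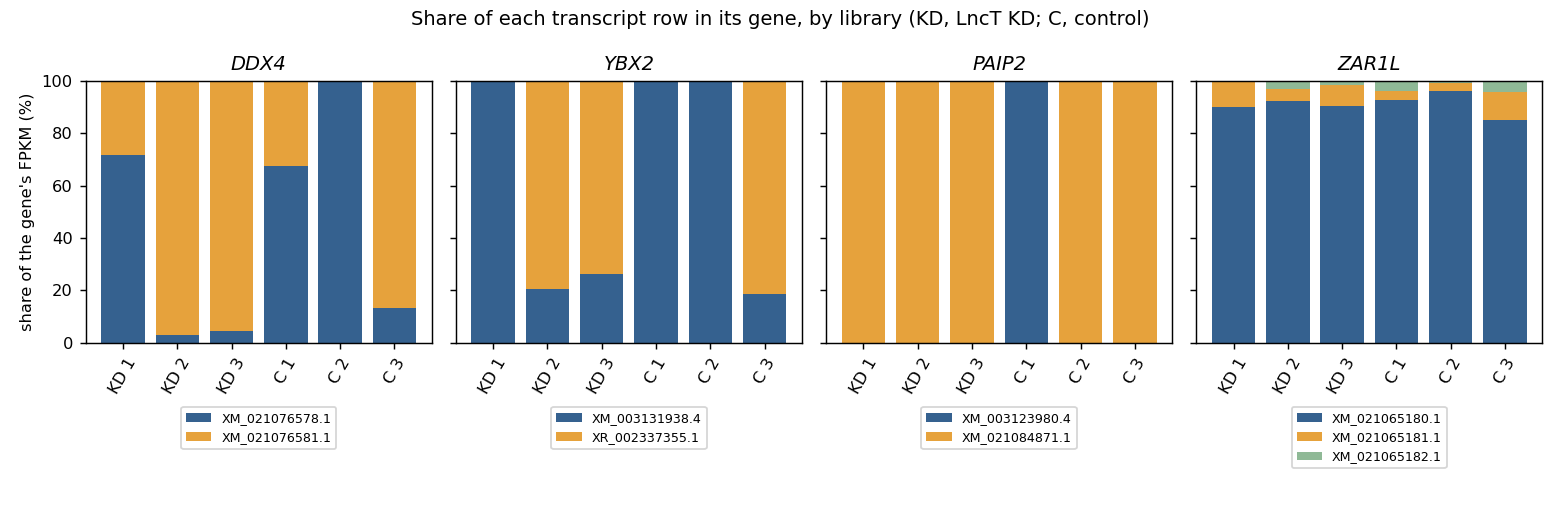
Share of each transcript row in the FPKM of its gene, in percent, for DDX4, YBX2, PAIP2 and ZAR1L, with LncT KD libraries 1 to 3 left of controls 1 to 3. DDX4 and YBX2 are led by one row in knockdown 1 and controls 1 and 2 and by the other in knockdowns 2 and 3 and control 3, PAIP2 differs in control 1, and ZAR1L keeps its leading row.

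Related genes were followed in 3 lists, of which 0 genes passed over 6 libraries in either direction. The partners of CPEB1 in cytoplasmic polyadenylation and of stored, masked mRNAs had 24 of 31 listed names tested. TENT2 and PAPD4, both listed, name the same gene, which was tested as PAPD4. Of the 24 genes tested 13 had a log2 change above 0 and 11 below, and their median was 0.13, with 0.0050 for all tested genes. That median was -0.05 under quantile normalization, where the median over all tested genes was -0.17. The most abundant of the list were MOS, EIF4E and AURKA. MOS, a kinase of meiotic arrest whose mRNA is a classic target of polyadenylation in frog oocytes, was at 72.8, 102 and 63.7 FPKM in LncT KD libraries, against 241, 250 and 40.7 FPKM in controls 1, 2 and 3. EIF4E, which binds the mRNA cap, was at 119, 111 and 133 FPKM in LncT KD libraries, against 61.6, 61.7 and 148 FPKM in controls. AURKA, the kinase that phosphorylates CPEB1 in frog oocytes, was at 48.1, 83.8 and 44.5 FPKM in LncT KD libraries, against 98.8, 70.1 and 41.6 FPKM in controls. The groups overlapped for all 3 genes, with log2 changes of -0.79, 0.54 and -0.22 (limma adjusted p = 0.787, 0.775 and 0.873). PUM2, a Pumilio repressor, was the only gene of the list with groups that did not overlap, at 4.28, 5.33 and 5.64 FPKM in LncT KD libraries, against 6.91, 6.14 and 9.26 FPKM in controls. Over all tested genes 2.86% had groups apart with LncT KD the lower, so 1 of 24 is near that share. PUM2 is named after its values were seen.

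The other poly(A)-binding proteins and their partners had 23 of 26 genes tested, 14 above 0 and 9 below, with a median of 0.08, or -0.11 under quantile normalization. PAIP1, which helps poly(A)-binding protein to stimulate translation, was the most abundant, at 695, 574 and 628 FPKM in LncT KD libraries, against 999, 909 and 517 FPKM in controls 1, 2 and 3. EIF4A2, an initiation helicase, was at 226, 192 and 370 FPKM in LncT KD libraries, against 56.9, 79.3 and 529 FPKM in controls. EIF4G2, an initiation scaffold that lacks the poly(A)-binding protein site, was at 182, 203 and 201 FPKM in LncT KD libraries, against 170, 126 and 226 FPKM in controls. Their log2 changes were -0.30, 0.91 and 0.21 (limma adjusted p = 0.801, 0.787 and 0.843), and groups overlapped for every gene of the list.

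Other germ cell RNA-binding proteins had 21 of 31 genes tested, 6 above 0 and 15 below, with a median of -0.18, or -0.33 under quantile normalization. The most abundant were MAEL and PIWIL1, which act with small RNAs against transposons, and NANOS1, a partner of Pumilio. MAEL was at 23.3, 29.0 and 17.3 FPKM in LncT KD libraries, against 70.8, 50.5 and 11.998 FPKM in controls 1, 2 and 3. PIWIL1 was at 22.9, 32.4 and 28.2 FPKM in LncT KD libraries, against 38.4, 54.6 and 16.2 FPKM in controls. NANOS1 was at 16.9, 28.9 and 16.7 FPKM in LncT KD libraries, against 46.3, 42.2 and 14.4 FPKM in controls. In each case controls 1 and 2 were the highest libraries and control 3 the lowest, and log2 changes were -0.62, -0.23 and -0.58 (limma adjusted p = 0.798, 0.882 and 0.786). PIWIL2 and STAU2, named after their values were seen, were the genes of the list whose groups did not overlap, both higher in LncT KD, as were 4.38% of all tested genes. PIWIL2 averaged 3.04 ± 0.0539 FPKM in LncT KD libraries and 1.70 ± 0.710 FPKM in controls (SD, n = 3 each). STAU2, a binder of double-stranded RNA, averaged 3.18 ± 0.653 FPKM in LncT KD libraries and 1.69 ± 0.254 FPKM in controls (SD, n = 3 each). Neither passed (limma adjusted p = 0.775 for each).

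Without control 3, 6 of the 24 CPEB1 partners and 6 of the 23 poly(A)-binding partners passed as higher, and 1 (MOS) and 0 as lower, where 20.2% of all tested genes passed as higher and 7.22% as lower. EIF4E and EIF4A2 were among the higher. In the germ cell list 1 gene, ASZ1, passed as higher and 4, MAEL, NANOS1, TDRD1 and SAMD4B, as lower. The medians were then 0.20, 0.32 and -0.44, against -0.56 for the members and -0.05 for all tested genes.

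**Figure D5:**
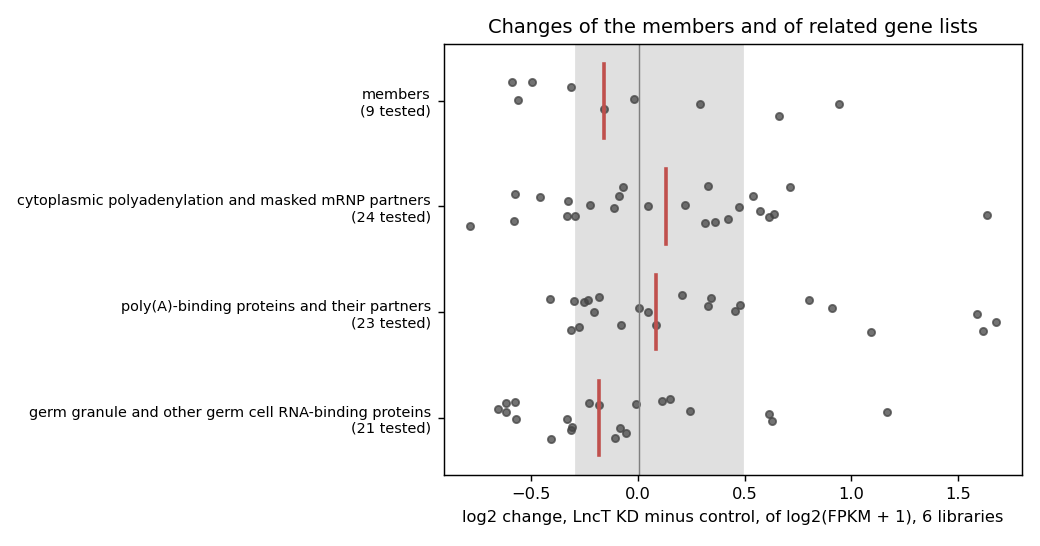
Log2 change over 6 libraries, LncT KD minus control on the log2(FPKM + 1) scale, of the 9 members and of the tested genes in 3 related lists, each point a gene and each red bar a median. The grey band is the interquartile range of all 10417 tested genes, from -0.29 to 0.49, and the 4 medians, from -0.18 to 0.13, lie within it.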

How the data were processed

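Per the submitters' processing notes, cutadapt, Bowtie2 2.3.5, StringTie 2.1.7 and the build Sscrofa11.1 were used, with no roles stated; the sources used here give no strand or multi-mapping setting. The deposited table of 81774 transcript rows gives, per the file headers, FPKM and TPM, scaled by the authors for length and library, and coverage, a signal of mean read depth. SL columns were matched to the siL titles that carry the LncT KD label. Another 9 columns (3 sets, named ST) fit no title and were left out, as were 2 smaller sheets. Should the SL siRNA have another target than LncT, every comparison here is of that target.

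Rows were summed per gene. In 1758 rows the name cell held a number and the identifier was used, and 129 date-like names were restored through accessions. Of 29874 genes, 29850 were in the RefSeq table of Sscrofa11.1, the source of coordinates. An exact 0 may be a failed estimate. Genes averaging 1 FPKM or more were tested with limma 3.58.1 (R 4.3.3) on log2(FPKM + 1), which understates changes of low genes, with a mean-variance trend, two-sided, Benjamini-Hochberg adjusted at 0.05. Coverage per FPKM was constant within a library. The fit was tested on simulated data with noise independent between genes and libraries. Those data held no library set apart across many genes, as control 3 was from the other controls here. Named genes were all members, their rows at a mean of 1 FPKM or more, and the 3 most abundant genes of each list, with additions marked in the text. Members and lists were chosen with earlier results of these data known. Python 3.11.15, pandas 2.3.3 and matplotlib 3.10.9 made tables and plots. Alternatives numbered 16.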

Additional observations from a re-analysis of the deposited data

How the results depend on the processing

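The count of genes called over 6 libraries, 0, became 3405 with array weights under which control 3 weighed 0.113 and each other library 0.789 to 2.31, and ranged from 0 to 2854 with 1 library left out, with 2854 without control 3. The count of called members, 0, became 5 with array weights and ranged from 0 to 4. Their median log2 change of -0.16 was -0.31 with quantile normalization, -0.28 with TPM, -0.57 with array weights and -0.53 with a mean of at least 5 FPKM, where fewer genes were tested, and ranged from -0.56 to 0.080 with 1 library left out. The median over all tested genes, 0.0050, was -0.17 with quantile normalization and -0.10 with TPM. It was -0.018 with array weights and -0.0042 with a mean of at least 5 FPKM. The 14 called transcript rows became 7 with a mean of at least 5 FPKM, 1700 with array weights and 0 with a replicate block, and ranged from 0 to 1614 with 1 library left out. PABPN1L turned to 0.26 with a pseudocount of 0.1, and ranged from -0.47 to 0.50 with 1 library left out, with 0.50 without control 1 and 0.32 without knockdown 1. YBX2 turned to 0.11 without control 1 and to 0.11 without knockdown 3, PABPC1L to 0.093 without control 2 and ZAR1L to 0.059 without control 1; without control 3 the values were -0.56 for YBX2, -0.86 for PABPC1L and -1.64 for ZAR1L. Other member changes kept their sign under the alternatives tried. The cause was not tested. The replicate numbers were not taken to pair the libraries, since the labels name no pairs. Same-numbered libraries correlated at 0.08, 0.06 and 0.23 in their deviations from the group means, and unlike-numbered ones at -0.19 to 0.11. Whether libraries were paired cannot be told from these values. The block left the count of called genes at 0, while genes with an unadjusted limma p under 0.05 rose from 436 to 747. Depth is known only relative to other libraries, so members under about 5 FPKM carry an unknown counting error.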
